A study of Homo sapiens with 4 samples.

Results

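The TERT locus lies near the tip of the short arm of chromosome 5 and was taken here as 8 protein-coding genes, NKD2, SLC12A7, SLC6A19, SLC6A18, TERT, CLPTM1L, SLC6A3 and LPCAT1, with the chromosome around them between 1.0 and 1.6 Mb (hg38). All 8 were found in the gene table, among 19817 protein-coding genes used for comparison. Every γH2AX peak of that window was described, 70 of 27296 in lipid-overloaded cells and 24 of 8542 in mock-treated cells. The genes and the window were chosen by the number and height of their peaks in these same lists, so the values of the peaks are given as a description without a test.

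γH2AX is the histone variant H2AX phosphorylated next to DNA double-strand breaks, and it was mapped by CUT&Tag, in which an antibody directs a transposase to cut and tag nearby DNA. The cells were HepG2, a human liver cancer line. The lipid-overload library (labelled HEPG2-PAOA) and the mock library (labelled HEPG2-DMSO) are 1 sample each, made from 100000 cells with 14 PCR cycles per the labels, so no difference between them has a replicate check. The labels give neither the lipids' dose nor the length of treatment, and 2 control IgG samples were not analysed here.

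TERT encodes the catalytic subunit of telomerase, which adds telomere repeats to chromosome ends and is silent in most adult tissues but active in most cancers, liver cancer included. The chromosome band that holds TERT and its neighbour CLPTM1L carries inherited risk variants for several cancers. In the response to a break, γH2AX spreads from the break over a broad stretch of chromatin, where repair proteins gather. A narrow peak therefore marks where tagged fragments pile up above their surroundings, and does not by itself place a break.

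The height of a peak is given as the number of sequenced fragments over its summit, worked out from the fold and p value in the authors' lists. Its fold is the authors' own ratio of summit fragments to the local background, with 1 added to both. The local background is the level that the peak caller took from 10 kb around the summit, and is given as a multiple of the level of the whole genome in the same library. Intervals are exact Poisson or binomial intervals at 95% and cover counting error only. The lipid-overload library held 2.62 times the fragments of the mock library, from genome levels of 46.4 and 17.7 fragment ends per 10 kb. These allow for the libraries' fragment lengths of 124 and 137 bp.

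The window was among the densest of the genome in both libraries. It held 117 peaks per Mb in lipid overload and 40 per Mb in mock. The other 4089 windows of 600 kb that hold a protein-coding gene had a median of 3 peaks (quartiles 1 and 9) in lipid overload and 1 (quartiles 0 and 3) in mock. As many peaks as here were found in 2 of them in lipid overload and 1 in mock. Of the 2 in lipid overload, one was the neighbouring window toward the chromosome end, with 94 lipid-overload and 23 mock peaks. The window on the other side, toward the centromere, had 42 and 17. With the lipid-overload list limited to its 8542 best-ranked peaks, as many as in the mock list, 27 lipid-overload peaks remained in the window against the 24 mock peaks.

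**Figure D1:**
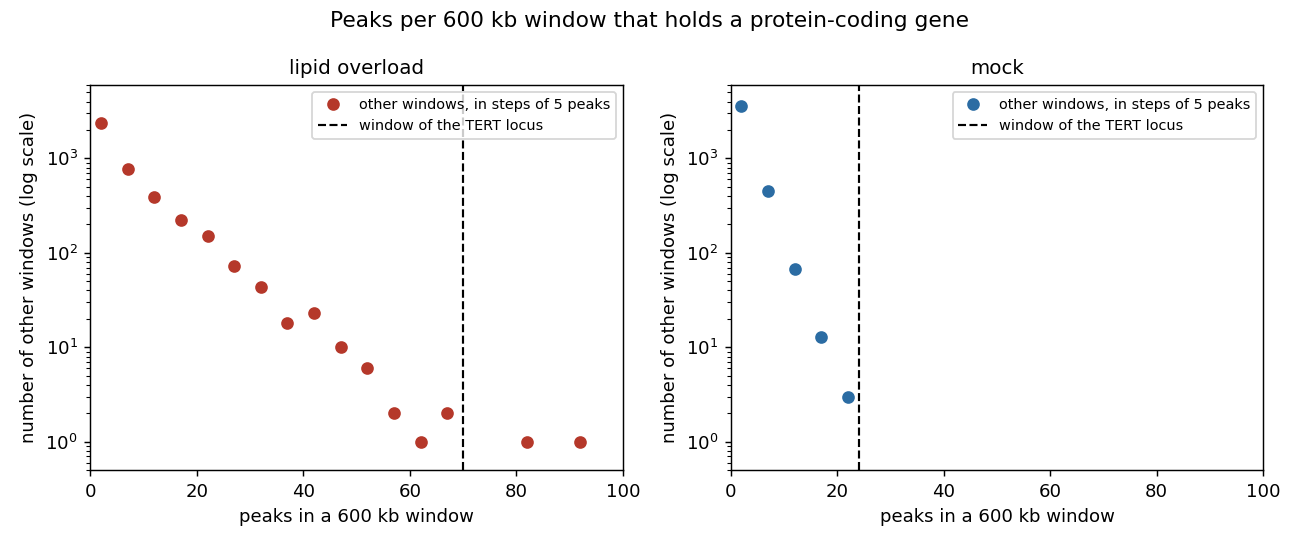
Number of peaks in each 600 kb window that holds a protein-coding gene (x axis) and the number of windows with that many peaks (y axis, log scale), for lipid overload on the left and mock on the right. Points count the other 4089 windows in steps of 5 peaks. The dashed line marks the window of the TERT locus, at 70 peaks in lipid overload and 24 in mock, near the upper end of both distributions.

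Most peaks of the window lay on a raised background. Over all peaks of each list the median local background was 2.57 times the genome level in lipid overload and 2.38 times in mock. For the window's peaks it was 13.1 times in lipid overload (lowest 1.79, highest 32.0) and 13.5 times in mock (lowest 3.56, highest 29.8). In numbers of fragment ends, the median 10 kb around a peak held 609 ends in lipid overload and 238 in mock, against 119 and 42.0 over all peaks. Among other windows with at least 5 peaks, 3 of 1723 in lipid overload and 4 of 540 in mock had a higher median. Peaks that overlap one of the 8 genes stood on 13.7 times the genome level in lipid overload and 15.1 times in mock, and peaks between the genes on 9.79 and 7.52 times. The neighbouring windows had medians of 10.1 and 5.71 times in lipid overload, and 11.7 and 5.15 times in mock, in order from the chromosome end. A peak's own fragments are part of its background, and what raised the level here was not tested.

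**Figure D2:**
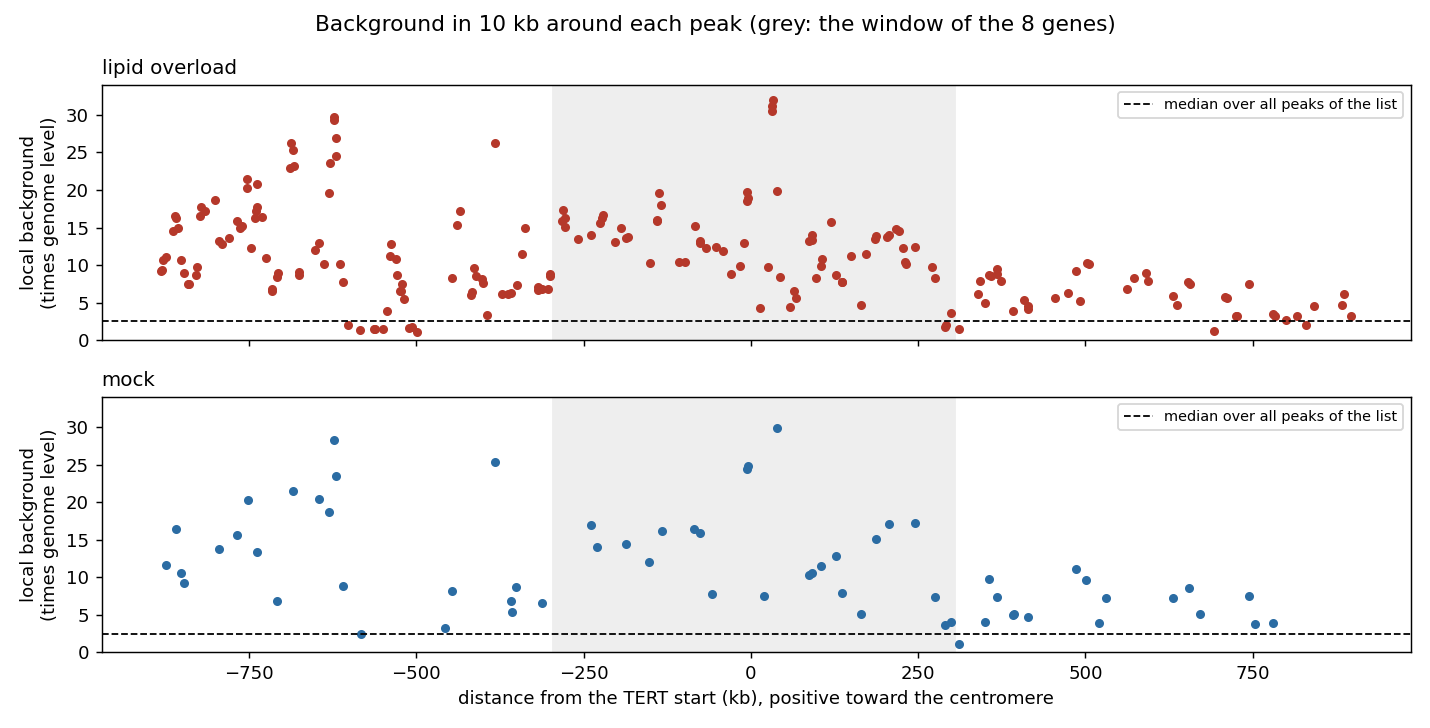
Local background in the 10 kb around each peak, as a multiple of the genome level (y axis), by distance of the summit from the TERT start in kb (x axis). Each point is 1 peak, lipid overload above and mock below. Grey marks the window of the 8 genes and the dashed line the median over all peaks of the list (2.57 in lipid overload, 2.38 in mock). Most points of the window lie well above that line in both libraries, and those of the pseudogene SDHAP3 at the right edge lie close to it.

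On this background, peaks had many fragments in both libraries. Their median fold was below that of the whole list in lipid overload and above it in mock. It was below that of peaks on a similarly raised background in both. The median peak of the window had 18 fragments in lipid overload and 12 in mock, against 9 and 5 over all peaks. In the window, 66 of the 70 lipid-overload and 23 of the 24 mock peaks were above these list medians. A background of at least 8 times the genome level was found at 60 of the 70 and 17 of the 24. Over the whole lists it was found at 8.22% of lipid-overload and 7.34% of mock peaks. Over all peaks of the lists on such a background, the lowest had 10 fragments in lipid overload and 7 in mock. For those peaks, being above the list medians was therefore fixed in advance. Over the lists, peaks on such a background had medians of 21 and 13 fragments. The window's medians of 18 and 12 also cover its peaks on a lower background, so these are unlike sets. Of the window's lipid-overload peaks, 28 had 20 or more fragments, the level that marks the top 10% of the list. The median fold was 4.17 in lipid overload, below the 5.14 of all peaks, and 27 of the 70 peaks were among the lowest 10% of the list by fold. In mock the median fold was 5.14, above the 4.54 of all peaks. Over all peaks with a background of at least 8 times the genome level, the median fold was 5.14 in lipid overload and 5.76 in mock. A ranking by fold and one by fragments place the lipid-overload peaks of this locus differently.

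**Figure D3:**
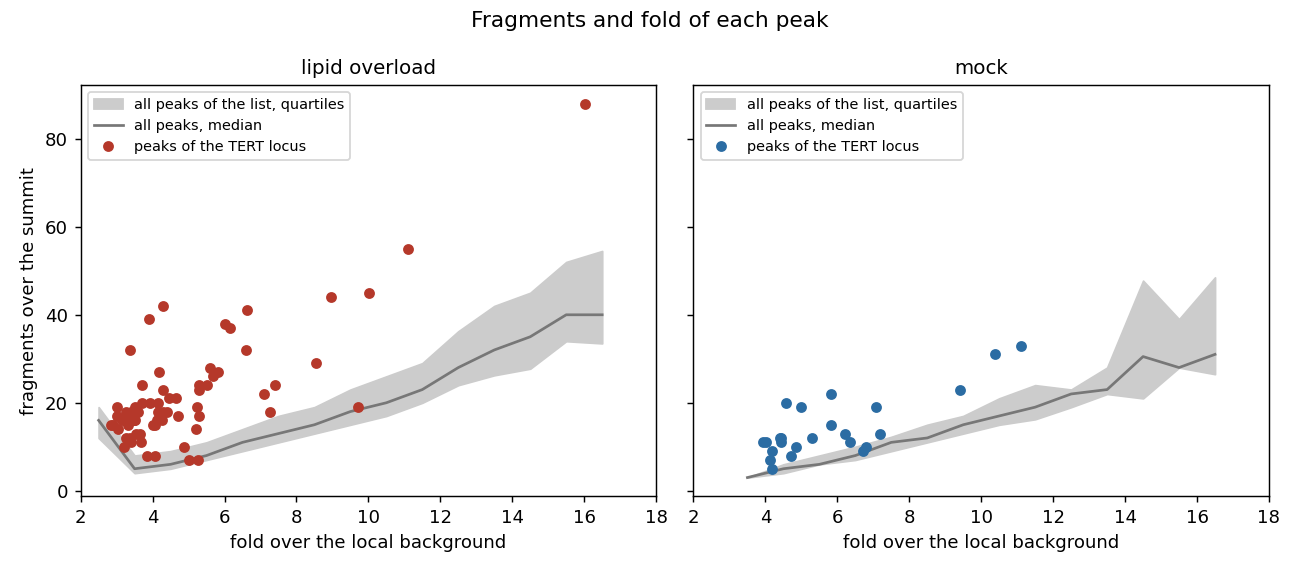
Fragments over the summit (y axis) against fold over the local background (x axis) for each peak of the TERT locus, lipid overload on the left and mock on the right. The grey band and line give the quartiles and median of all peaks of the list, in steps of 1 in fold. At the same fold, most peaks of the locus have more fragments than the median peak. This follows from their higher background, because the fold is a ratio to it. The highest lipid-overload point, at 88 fragments, is in SLC6A3.

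Most peaks overlapped the genes, which also cover most of the window. Of the 70 lipid-overload peaks, 49 overlapped one of the 8 genes (70.0%), as did 15 of the 24 mock peaks (62.5%). The genes cover 364 kb of the 600 kb, or 60.7%, below both shares. Peaks overlapping the genes came at 1.34 per 10 kb in lipid overload, against 0.891 between them, and at 0.412 against 0.382 in mock. Within 1 kb of a gene end lay 4 of the 70 lipid-overload peaks (5.71%) and 0 of the 24 mock peaks. These stretches are also a small part of the window, and a preference for the inside of the genes was not tested. All 8 genes held a peak in lipid overload, where 58.0% of protein-coding genes held one in the gene or within 1 kb of its ends. In mock all but NKD2 held one, 7 of 8, against 24.2% of protein-coding genes. At a gene end, within 1 kb either side, 3 of the 8 genes had a lipid-overload peak (SLC12A7, TERT and SLC6A3), near the 43.4% of all protein-coding genes, and 0 of 8 had a mock peak, where 13.4% of all did. The lipid-overload number was 1 of 8 at a −log10 q of at least 5, at a fold of at least 5 and with lists of equal length. The share of all protein-coding genes was not worked out at these settings, where every gene has fewer peaks to be marked by. A start is annotated in the promoter table for 7 of the 8, all but SLC6A3. Of these 7, only SLC12A7 had a lipid-overload peak within 1 kb of it, where 43.3% of genes with an annotated start did, and 0 had a mock peak there, where 13.1% did. Within 3 kb of an end, counts were 8 of 8 in lipid overload, where 50.9% of protein-coding genes were marked, and 2 of 8 in mock (CLPTM1L and LPCAT1), where 17.0% were. Neighbouring lipid-overload summits of the window lay a median of 6.95 kb apart. Because the genes were chosen by their peaks, high counts of marked genes were favoured in advance and are no test.

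**Figure D4:**
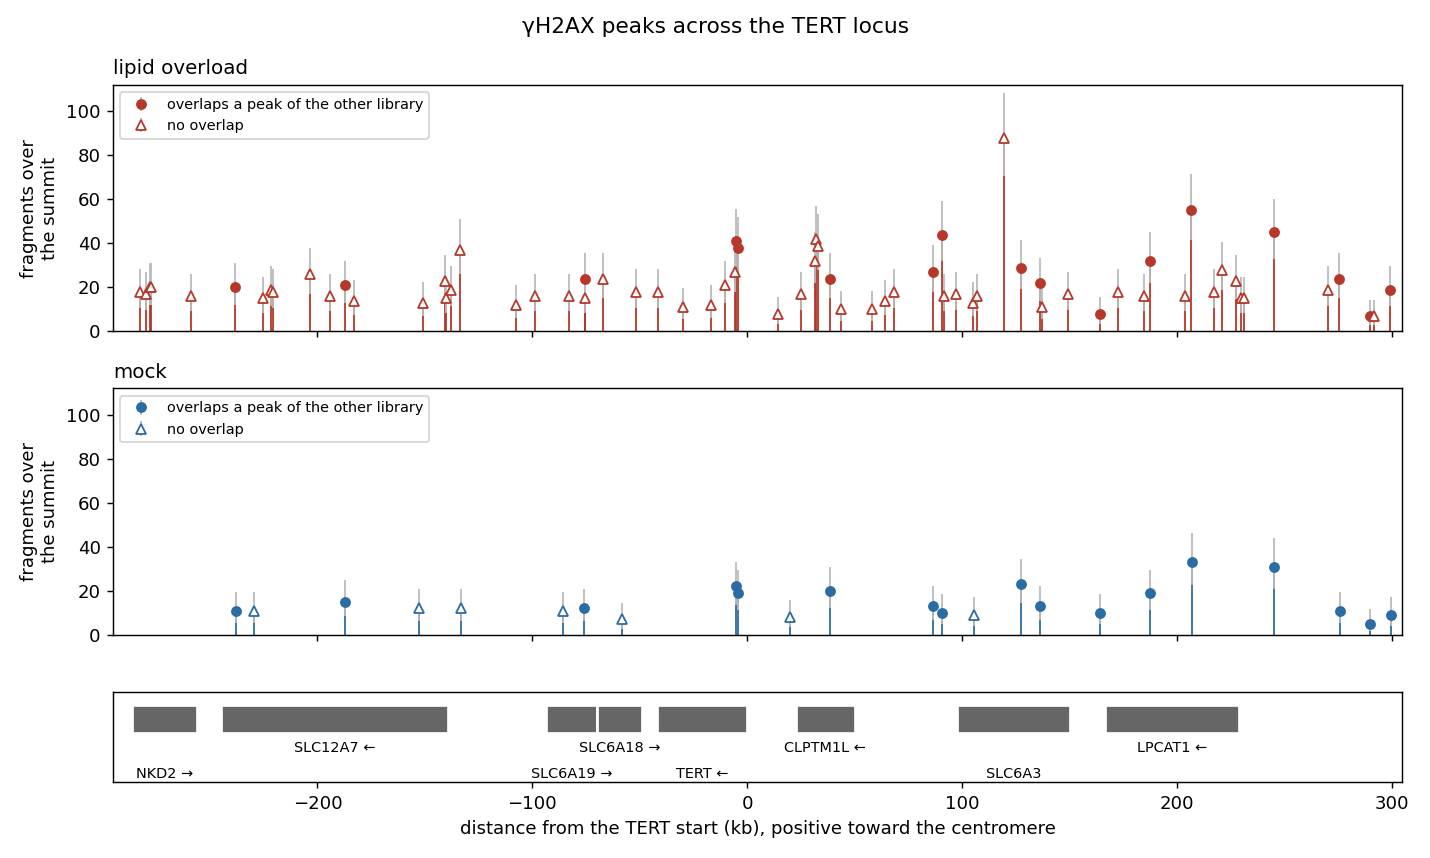
Peaks of the TERT locus as fragments over the summit (y axis) by distance from the TERT start in kb (x axis), lipid overload above and mock in the middle, with the 8 genes as boxes below and arrows for the strand where it is annotated. Filled circles overlap a peak of the other library, open triangles do not, and grey bars are 95% counting intervals. The 70 lipid-overload peaks run through all 8 genes, and the 24 mock peaks through all but NKD2.

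TERT (chromosome 5, 1253167 to 1295068, minus strand) held 7 lipid-overload peaks, a number reached by 1.12% of protein-coding genes, and 2 mock peaks. Both libraries marked the same pair of sites in the first part of the gene. The peak at 1289701 to 1290255 had 41 fragments in lipid overload (29.4 to 55.6), and its mock counterpart at 1289705 to 1289923 had 22 (13.8 to 33.3). The second, at 1290734 to 1291159, had 38 fragments in lipid overload (26.9 to 52.2), and its mock counterpart 19. Its near edge lay 3909 bp from the annotated start of TERT in lipid overload and 3800 bp in mock. The local background of the pair was 18.5 and 19.0 times the genome level in lipid overload and 24.4 and 24.8 times in mock.

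The other 5 peaks of TERT were in the lipid-overload list only. One of 27 fragments at 1289265 to 1289461 adjoined the pair, on a background of 19.7 times the genome level, and one of 21 lay at 1284512 to 1284930. The background was lower in the rest of the gene, 8.77 to 13.0 times. Peaks of 12 and 11 fragments followed farther into the gene. The last, at 1253656 to 1253787 with 18 fragments, lay within 1 kb of the 3′ end of the gene. No peak of either library was listed within 1 kb of the TERT start.

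The promoter sequences of TERT and SLC12A7 are shown because one starts the gene that names the locus and has no peak, and the other is the only promoter of the 7 that a peak touches. They run from 250 bases before to 50 after the annotated start and are from RefSeq, build GRCh38.p14, both on the minus strand, TERT at chr5:1295019-1295318 and SLC12A7 at chr5:1112014-1112313. Capitals mark GC boxes (GGGCGG, or CCGCCC on the other strand), which bind SP1-type factors, and the E box CACGTG, the same on both strands, which binds MYC and related factors.
TERT: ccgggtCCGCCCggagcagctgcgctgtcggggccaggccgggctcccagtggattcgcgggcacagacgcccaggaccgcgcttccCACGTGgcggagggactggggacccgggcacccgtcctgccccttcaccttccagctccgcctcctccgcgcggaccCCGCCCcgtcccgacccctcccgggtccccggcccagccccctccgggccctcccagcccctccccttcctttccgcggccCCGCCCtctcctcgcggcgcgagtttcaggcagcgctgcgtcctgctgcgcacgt
SLC12A7: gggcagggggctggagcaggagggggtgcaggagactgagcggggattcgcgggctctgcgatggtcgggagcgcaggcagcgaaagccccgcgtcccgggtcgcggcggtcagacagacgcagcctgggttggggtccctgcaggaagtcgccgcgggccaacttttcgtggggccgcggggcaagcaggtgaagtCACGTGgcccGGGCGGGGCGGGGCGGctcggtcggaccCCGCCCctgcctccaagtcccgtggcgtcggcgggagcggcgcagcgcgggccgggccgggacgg
TERT has 3 GC boxes and SLC12A7 has 4, of which 3 stand in one run and overlap, and each has 1 E box. Among 27305 promoters of the same length, 44.6% hold a GC box and 7.43% this E box. Of the 7 promoters of the locus, 5 hold a GC box and 2 the E box. G+C made up 77.3% of the TERT window and 76.3% of the SLC12A7 window, against a median of 58.3% over all promoters. The peak of SLC12A7 covers only the last 6 bases printed.

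CLPTM1L (1317752 to 1345099, minus strand) encodes a membrane protein of the endoplasmic reticulum and had 6 lipid-overload peaks and 1 mock peak. At 2.19 peaks per 10 kb it was the most densely marked of the 8 genes in lipid overload. A run of 3 peaks between 1326549 and 1327971 had 32, 42 and 39 fragments in lipid overload and no mock counterpart. It stood on the highest background of the window, 30.5 to 32.0 times the genome level, and the fold of the 3 peaks was 3.36, 4.30 and 3.91. A site at 1333388 to 1333573 was listed in both libraries, with 24 fragments in lipid overload (15.4 to 35.7) and 20 in mock (12.2 to 30.9), on backgrounds of 19.9 and 29.8 times. The remaining lipid-overload peaks had 17 and 10 fragments, and the one nearest the start lay 6180 bp from it.

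SLC6A3 (1392794 to 1445440), the dopamine transporter gene, is used mainly in dopamine neurons and is not a liver gene. It had 8 lipid-overload peaks in the gene or at its ends and 3 mock peaks in the gene. It held the highest peak of the locus: 88 fragments in lipid overload (70.6 to 108) at 1414384 to 1414557, with a fold of 16. Among 23400 lipid-overload peaks without a mock overlap, this one ranked 2nd by fragments, and it ranked 50th among all 27296. No mock peak overlapped it. At mock depth 88 fragments correspond to 33.5 (26.9 to 41.3). The nearest mock peaks lay 13674 bp away on one side, with 9 fragments, and 7832 bp on the other, with 23. The 81 mock peaks whose background fell between those of these neighbours all had 8 or more fragments. The peak was 174 bp wide, where the 61 lipid-overload peaks without a mock overlap and with 40 or more fragments had a median width of 373 bp, and 5 of the 61 were as narrow or narrower.

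Both libraries also marked 2 further sites in SLC6A3. The site at 1422370 to 1422609 had 29 fragments in lipid overload (19.4 to 41.6) and 23 in mock (14.6 to 34.5). The site at 1431403 to 1431783 had 22 in lipid overload and 13 in mock. At both sites the counting intervals of the libraries overlapped before any allowance for depth. Peaks of 17 fragments lay within 1 kb of each end of SLC6A3 in lipid overload, at 1392241 to 1392532 and 1444355 to 1444487. Peaks of 13, 16 and 11 fragments inside the gene were in lipid overload only. The third mock peak, with 9 fragments at 1400525 to 1400710, lay 417 bp from the lipid-overload peak of 13.

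SLC6A19 and SLC6A18 encode amino acid transporters of the gut and kidney brush border, and they lie head to tail on the plus strand. SLC6A19 (1201595 to 1225111) had 3 lipid-overload and 2 mock peaks. The site at 1219207 to 1219571 was shared, with 24 fragments in lipid overload (15.4 to 35.7) and 12 in mock (6.20 to 21.0). A peak of 15 fragments adjoined it in lipid overload. A lipid-overload peak of 16 fragments and a mock peak of 11, 2432 bp apart, made up the rest. SLC6A18 (1225381 to 1246189) had peaks of 24 and 18 fragments in lipid overload and 1 mock peak of 7 at another site. It was the gene with the fewest lipid-overload peaks, and 24% of protein-coding genes had as many.

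SLC12A7 (1050384 to 1155899, minus strand) encodes KCC4, which carries potassium and chloride out of the cell. It is the longest of the 8 genes at 106 kb and had the most peaks, 11 in lipid overload and 4 in mock, numbers reached by 0.283% and 0.429% of protein-coding genes. Its highest lipid-overload peak had 26 fragments (17 to 38.1) at 1091565 to 1091915 and no mock counterpart. Shared sites had 20 fragments in lipid overload and 11 in mock at 1056850 to 1057107, and 21 and 15 at 1107900 to 1108100. The promoter table places its start at 1112063, inside the span that the gene table gives. A lipid-overload peak of 14 fragments at 1111870 to 1112019 ended 44 bp from that start. Toward the gene's end at 1155899, on the centromere side, peaks of 23 and 15 fragments lay at 1154300 to 1154582 and 1154805 to 1155024. Both are upstream of the start in the promoter table, and the second is within 1 kb of that end of the gene. The other lipid-overload peaks had 13 to 19 fragments. The other mock peaks had 11 and 12.

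NKD2 (1008802 to 1038943, plus strand) encodes an inhibitor of Wnt signalling that binds Dishevelled. It had 5 lipid-overload peaks and no mock peak. In order along the gene they had 18, 17, 20, 20 and 16 fragments, with folds of 3.0 to 3.92 on a background 13.5 to 17.3 times the genome level. The peak nearest the start lay 3550 bp inside the gene.

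LPCAT1 (1461427 to 1523960, minus strand) encodes an acyltransferase that makes phosphatidylcholine from lysophosphatidylcholine and is also found on lipid droplets. It had 8 lipid-overload peaks and 2 mock peaks. Its site at 1501645 to 1502217 had 55 fragments in lipid overload (41.4 to 71.6) and 33 in mock (22.7 to 46.3), where it was the highest peak of the locus. Its fold was 11.1 in both libraries. A second shared site, at 1482397 to 1482722, had 32 fragments in lipid overload (21.9 to 45.2) and 19 in mock (11.4 to 29.7). Lipid overload alone had peaks of 28 fragments at 1515880 to 1516448 and 23 at 1522264 to 1522498, and 4 others of 16 to 18. The nearest lipid-overload peak to the start, with 15 fragments, lay 1025 bp outside the gene, just past the 1 kb limit. The nearest mock peak to the start lay 15605 bp away.

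Between the genes, 21 lipid-overload and 9 mock peaks were listed. Beyond LPCAT1, a site at 1539546 to 1540313 had 45 fragments in lipid overload (32.8 to 60.2) and 31 in mock (21.1 to 44.0), with folds of 10.0 and 10.4. Peaks of 15, 15 and 19 fragments nearby were in lipid overload only. Between CLPTM1L and SLC6A3, a site at 1385656 to 1386170 had 44 fragments in lipid overload (32.0 to 59.1) and 10 in mock (4.80 to 18.4). It is the one shared site of the locus where the lipid-overload count was more than 2.62 times the mock count. Its neighbour at 1381429 to 1381801 had 27 fragments in lipid overload and 13 in mock. Further lipid-overload peaks in this gap had 10, 14 and 18 fragments, the last within 1 kb of the long noncoding RNA gene LINC01511, and one of 16 adjoined the peak of 44. Between SLC12A7 and SLC6A19, a lipid-overload peak of 37 fragments (26.1 to 51.0) at 1161137 to 1161588 ended 316 bp from a mock peak of 12. Lipid-overload peaks of 19, 12 and 16 fragments made up the rest of that gap. A site between SLC6A3 and LPCAT1 was the one shared site with fewer fragments in lipid overload, 8 (3.45 to 15.8), than in mock, 10 (4.80 to 18.4).

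A lipid-overload peak of 8 fragments at 1309287 to 1309469, between TERT and CLPTM1L, covered MIR4457, a microRNA gene at 1309310 to 1309377 on the minus strand. Its mature sequence (RefSeq, GRCh38.p14, chr5:1309314-1309335) is shown because it is the one microRNA of the window under a peak, with the seed, bases 2 to 8, in capitals.
hsa-miR-4457: uCACAAGGuauugacuggcgua
No mock peak overlapped it, and a mock peak of 8 fragments lay elsewhere in the same gap, at 1314718 to 1314861. At the edge toward the centromere, SDHAP3, a transcribed pseudogene of the succinate dehydrogenase gene SDHA, held peaks of 7, 7 and 19 fragments in lipid overload and of 5 and 9 in mock. A further site within 1 kb of it had 24 fragments in lipid overload and 11 in mock. The peaks within SDHAP3 stood on the lowest backgrounds of the window, 1.79 to 3.66 times the genome level in lipid overload and 3.56 and 4.07 times in mock. Reads from pseudogenes with close copies cannot be placed with certainty, so these counts are uncertain. Just outside the window, the nearest lipid-overload peaks had 11 fragments on one side and 7 on the other, and the nearest mock peaks 9 and 3. The outermost peaks inside had 18 and 19 fragments in lipid overload and 11 and 9 in mock.

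The share of peaks without a counterpart was smaller here than over the whole lists. In the window 53 of the 70 lipid-overload peaks had no mock overlap (75.7%, 64.0 to 85.2), against 85.7% of the whole list. The number was 21 of 33 at a −log10 q of at least 5, 15 of 24 at a fold of at least 5, and 14 of 27 with lists of equal length. Shares over the whole lists were not worked out at these settings, so these counts have no comparison. Of the 24 mock peaks 7 had no lipid-overload overlap (29.2%, 12.6 to 51.1), against 54.2% of the whole list. Over all lipid-overload peaks with a background of at least 8 times the genome level, 67.1% had no mock overlap, and over all such mock peaks 14.4% had no lipid-overload overlap. The window's shares lay between these and those of the whole lists, higher than at peaks on such a background. Its intervals include the shares at that background. The 7 mock peaks without a counterpart had 7 to 12 fragments and lay 316 to 6478 bp from the nearest lipid-overload peak. Lipid-overload peaks had a median of 24 fragments where shared and 17 where not.

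At the 17 shared sites, 10 of them in the genes, the lipid-overload count was 0.800 to 4.4 times the mock count, with a median of 1.69. At 16 of the 17 it was below the depth ratio of 2.62. The one above is 5.88% of the sites, against 36.5% of the 3914 shared sites of the genome, where the median was 2.23. Summed over the 17 sites, 480 fragments in lipid overload stood against 276 in mock, a ratio of 1.74 (1.5 to 2.02), or 0.663 per unit of depth. Among the 632 shared sites of the genome with at least 9 mock fragments and a mock background of at least 7 times the genome level, 36.7% were above the depth ratio. Of the 17 sites, the one between SLC6A3 and LPCAT1 and those within SDHAP3 fall below these limits. The fragment ends in 10 kb around the 17 sites had a median ratio of 2.18 (lowest 1.32, highest 3.48). The median was 3.01 at all shared sites and 2.85 at the 632. Summits of the shared peaks of TERT lay 43 and 11 bp apart between the libraries.

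**Figure D5:**
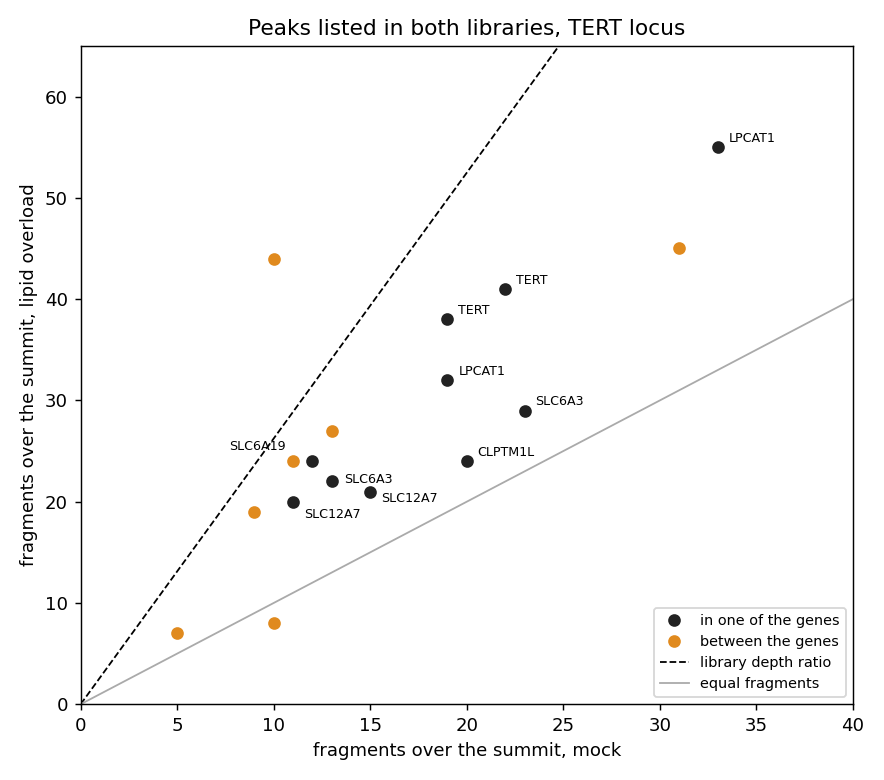
Fragments over the summit in lipid overload (y axis) and in mock (x axis) at the 17 sites of the TERT locus listed in both libraries, with sites in the 8 genes in black and sites between them in orange. The dashed line is the ratio of library depths, 2.62, and the grey line equal numbers. One site between CLPTM1L and SLC6A3 lies above the dashed line, with 44 fragments against 10, and both TERT sites lie below it.

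Genes related to the 8 were compared through lists written with earlier results of these data known. Of 18 further genes of telomerase and telomere protection, 11 were marked at an end in lipid overload (61.1%, 35.7 to 82.7) and 3 in mock (16.7%, 3.58 to 41.4). Over all protein-coding genes the shares were 43.4% and 13.4%. STN1, a subunit of the complex that helps fill in telomere ends, had 31 fragments in lipid overload (21.1 to 44.0) and no mock peak at an end, and DKC1, which encodes the RNA-binding protein dyskerin of telomerase, had 21 and none. ACD, which encodes the shelterin subunit TPP1, had 20 in lipid overload and 12 in mock, and NHP2, another protein of the telomerase particle, 19 and 9. TERC, the RNA template of telomerase and the one noncoding gene of the list, had no peak in either library. These peaks lie at gene ends, where TERT had 18 fragments in lipid overload at its 3′ end.

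Of 16 other SLC6 transporter genes, 7 were marked at an end in lipid overload (43.8%, 19.8 to 70.1) and 0 in mock (up to 20.6%). The highest were the taurine transporter gene SLC6A6 with 25 fragments, SLC6A16 with 24, the GABA transporter gene SLC6A13 with 15 and the glycine transporter gene SLC6A9 with 12. Of 8 other cation-chloride cotransporter genes of the SLC12 family, 6 had one in lipid overload and 2 in mock, with SLC12A3 at 18 and 6 fragments and SLC12A9 at 14, SLC12A8 at 11 and SLC12A4 at 10 in lipid overload only. Of 16 other genes of phospholipid acyltransferases, 11 had one in lipid overload (68.8%, 41.3 to 89.0) and 5 in mock (31.3%, 11 to 58.7). MBOAT7, which acylates lysophosphatidylinositol, had 82 fragments in lipid overload (65.2 to 102) and 28 in mock (18.6 to 40.5), LPCAT3 33 and 6, AGPAT1 28 and 11, and AGPAT2 35 in lipid overload only. Of 16 inhibitors and regulators of Wnt signalling, 6 had one in lipid overload (37.5%, 15.2 to 64.6) and 2 in mock. AXIN1, a scaffold of the complex that degrades β-catenin, had 45 fragments in lipid overload and 9 in mock, DKK4 19 and 4, and TLE1 18 and APC 10 in lipid overload only.

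The genes most like TERT were sought by 4 values over the 2 libraries, the fragments of the highest gene-end peak and the number of peaks in the gene and at its ends in each. The 5 nearest were ANKRD33B, VMP1, LAMA5, NLRC5 and TBCD, each with 6 or 7 lipid-overload and 2 mock peaks, and with 15 to 21 fragments at a gene end in lipid overload and no gene-end peak in mock. Only ANKRD33B is also on chromosome 5. In the neighbouring windows the highest gene-end peaks of lipid overload were at CEP72, which encodes a centrosome protein, with 26 fragments, and at the homeobox gene IRX4, with 13, and neither gene had a mock peak at an end.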

How the data were processed

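γH2AX CUT&Tag peak lists of 1 lipid-overload and 1 mock library were used. The submitters' processing notes name build hg38, the peak caller MACS2 2.1.2, the aligner BWA, and FastQC and deepTools, but no settings. Each deposited peak has a score (not used here), the fold as a linear ratio, the summit's offset, and −log10 of the p-value and of the q-value.

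Fragments and background were solved from the deposited fold and −log10 p under the formulas of MACS2. A whole number fitted 100% of peaks within 0.0001, and the step was tested on simulated data. Background steps gave mean fragment lengths of 124 bp (lipid overload) and 137 bp (mock). Genes and promoters came from RefSeq tables of GRCh38.p14, the coordinates of hg38. Of 59788 genes, 718 that break position order by over 1 Mb were set aside. Overlap means at least 1 bp. Python 3.11.15, numpy 2.4.6, pandas 2.3.3 and scipy 1.17.1 were used.

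The genes, window and lists were chosen with earlier results of these data known. Named genes are the 8 genes, annotated genes within 1 kb of a peak, up to 4 per list by lipid-overload gene-end fragments, the 5 most like TERT and 1 per neighbouring window. TERC was added after its values were seen. Alternatives covered q, fold, list length, merging, window edges, overlap, gene-end distance and depth.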

Additional observations from a re-analysis of the deposited data

How the results depend on the processing

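Of 27 alternatives over 7 results, 13 stayed within 1.5 times the reported value and 14 did not. The 70 lipid-overload and 24 mock peaks of the window became 33 and 13 at a −log10 q of at least 5, and 24 and 12 at a fold of at least 5. With lists of equal length the lipid-overload number was 27. The 53 lipid-overload peaks without a mock overlap became 21, 15 and 14 under these settings in turn. The 3 genes with a gene-end peak in lipid overload became 1 under each of these, and 8 with ends widened to 3 kb, where the mock number of 0 became 2. Peak density, 10.9 times that of the other windows in lipid overload, was 6.96 times at a fold of at least 5. Merged peaks, shifted window edges, other overlap rules and another depth ratio moved no value by more than 1.5 times. The cause of these shifts was not tested, apart from stricter thresholds keeping fewer peaks by construction. At these q and fold limits and with lists of equal length, shares over the whole lists and over all protein-coding genes were not worked out. Whether these drops are particular to the locus is therefore not known. Depth limits the comparison: the mock library had 1 fragment for every 2.62 in lipid overload, so weak sites can be missing from its list. No paired analysis was possible because each group has 1 sample, and no replicate could be left out.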

Other observations

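Other windows of 600 kb resembled the TERT locus. The window of chromosome 9 from 136.8 to 137.4 Mb held 80 lipid-overload and 24 mock peaks, with median local backgrounds of 13.0 and 12.4 times the genome level. The window of chromosome 16 from 89.4 to 90.0 Mb held 65 and 19 peaks, with 11 and 9.84 times. Dense peaks on a raised background were also listed elsewhere in both libraries.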
